A study of Mus musculus with 8 samples.

Results

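The genes described here are 30 genes of DNA replication and mitosis, fixed by name and read in the expression data of back-skin epidermis from mouse pups at postnatal day 5. All 30 were found among 21690 genes. They were taken in groups of 10 S phase genes and 20 mitotic genes. The series concerns ESRP1 and ESRP2, epithelial RNA-binding proteins that regulate splicing. It holds 8 libraries, 4 control and 4 experimental, which the labels call biological replicates. The control pups had the genotype Esrp1flox/flox; Esrp2-/-, and the experimental pups K5rTA tetOCre Esrp1flox/flox; Esrp2-/-. The dams of both groups ate high-dose doxycycline chow from embryonic day 17 to postnatal day 5. By these labels both groups were Esrp2-/- and exposed to doxycycline, and the groups differed in the Cre transgenes and the loss of Esrp1. Keratin 5, whose promoter the transgene name gives, is a keratin of basal keratinocytes. The labels name no litter and do not say whether pups were pooled, and the p-values measure the spread between these libraries.

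In the epidermis, division takes place mainly in the basal layer and in the hair follicle, and cells that move upward leave the cell cycle and differentiate. Genes for replication are transcribed from late G1 into S phase, largely under E2F factors. Genes for mitosis follow in G2 and M, under the MuvB complex with MYBL2 and FOXM1, often through CCAAT boxes and a short element called the cell cycle homology region (CHR). In a whole-tissue library, fewer dividing cells and less of a transcript per dividing cell cannot be told apart.

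Upstream sequences are shown for 4 genes, because the mitotic genes are known to share these promoter elements and the genes moved together between libraries. They are the 2 S phase and 2 mitotic genes with the highest mean level among those with a promoter entry in RefSeq (GRCm38.p6). Each run is the 250 bases before the start, on the gene's strand. Capitals mark CCAAT, or TTTGAA or TTCGAA (CHR core), or TTTGGCGC, TTTCGCGC, TTTCCCGC or TTTGCCGC (E2F core), read on both strands. Pcna encodes the sliding clamp of the replication fork and lies on the minus strand at chr2:132253181-132253430.
Pcna: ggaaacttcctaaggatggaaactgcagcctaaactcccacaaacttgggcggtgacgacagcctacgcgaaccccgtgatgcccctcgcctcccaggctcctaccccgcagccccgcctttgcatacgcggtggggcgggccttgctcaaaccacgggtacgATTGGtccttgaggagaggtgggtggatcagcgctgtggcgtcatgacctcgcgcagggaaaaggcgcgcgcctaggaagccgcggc
Rrm2 encodes the small subunit of ribonucleotide reductase, which makes deoxynucleotides, and lies on the plus strand at chr12:24708004-24708253.
Rrm2: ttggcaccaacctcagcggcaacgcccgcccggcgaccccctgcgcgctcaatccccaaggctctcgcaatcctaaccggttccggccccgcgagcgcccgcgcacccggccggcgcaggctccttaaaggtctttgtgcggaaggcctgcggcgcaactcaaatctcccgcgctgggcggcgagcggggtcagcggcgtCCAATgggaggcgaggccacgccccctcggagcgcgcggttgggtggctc
Ube2c encodes the ubiquitin-conjugating enzyme of the anaphase-promoting complex and lies on the plus strand at chr2:164769679-164769928.
Ube2c: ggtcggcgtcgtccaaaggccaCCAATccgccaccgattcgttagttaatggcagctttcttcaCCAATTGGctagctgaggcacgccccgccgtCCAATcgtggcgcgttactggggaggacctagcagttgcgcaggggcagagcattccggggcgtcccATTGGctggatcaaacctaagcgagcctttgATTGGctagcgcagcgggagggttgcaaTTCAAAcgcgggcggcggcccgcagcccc
Cdc20 encodes the activator of that complex and lies on the minus strand at chr4:118437344-118437593.
Cdc20: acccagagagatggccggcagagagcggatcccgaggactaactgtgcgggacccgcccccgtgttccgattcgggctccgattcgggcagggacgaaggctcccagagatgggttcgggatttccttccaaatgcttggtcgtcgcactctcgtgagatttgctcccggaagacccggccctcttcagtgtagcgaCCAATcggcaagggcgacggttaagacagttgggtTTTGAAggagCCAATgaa

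The Pcna and Rrm2 windows each held 1 CCAAT box and no CHR core. Ube2c held 6 CCAAT matches, 2 of which overlap, and a CHR core 29 bases before the start. Cdc20 held 2 CCAAT boxes and a CHR core 18 bases before the start. No printed window, including those of the S phase genes Pcna and Rrm2, held an E2F core. Of the 26 genes with a promoter entry, CCAAT was found in 8 of 9 S phase and 15 of 17 mitotic genes, against 37.5% of 27025 genes with an entry. The CHR core was found in 2 of 9 S phase and 8 of 17 mitotic genes, against 19.6% of all. The E2F core was found in 3 of 9 S phase genes and 1 of 17 mitotic genes, against 2.16% of all. A gene with several listed starts was counted once if any start held the motif. These matches describe letters and not bound sites.

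Expression is given as TPM, a share of transcripts corrected for length, so levels can be compared between genes. The deposited values were read as log2 TPM, a scale inferred from the data that no source states; on the other reading, log2(TPM + 1), every value above 0 would be 1 TPM lower. Under the reading used, a 0 here means 1 TPM or less. Sequencing depth is unknown, since TPM does not keep it. Over control libraries 1 to 4, 11640, 11371, 11024 and 10523 genes lay above 1 TPM, against 10401 to 11077 in the experimental libraries. The median log2(TPM + 1) of genes with a mean of at least 1 TPM also fell over the controls. It was 3.738, 3.607, 3.41 and 3.314 there and 3.052 to 3.455 in the experimental libraries. The targeted gene Esrp1 read 135, 131, 133 and 162 TPM across the controls, against 65.0, 49.8, 75.6 and 66.5 TPM across the experimental set, with no overlap (log2 change -1.13, SE 0.17, limma adjusted p = 0.0112). Without experimental libraries 2 and 4 it did not pass (log2 change -0.98, limma adjusted p = 0.149). Esrp2 transcript, which both genotypes are labelled to lack, read 3.07, 0, 2.14 and 3.31 TPM for control libraries 1 to 4 and 4.98, 3.25, 5.28 and 4.22 TPM for experimental libraries 1 to 4 (log2 change 0.73, SE 0.25, limma adjusted p = 0.176). Whether these reads cover the altered part of the gene cannot be seen in gene totals, so they do not check the Esrp2 label. Mitochondrial transcripts took 18.2% and 17.5% of the TPM across the experimental set 2 and 4 and 10.6% to 12.6% in the others. Libraries are numbered here within a group in the order of the table. The column names themselves carry numbers that the labels do not explain: 11, 14, 23 and 25 for control libraries 1 to 4, and 18, 21, 22 and 24 for experimental libraries 1 to 4.

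The cell cycle genes did not separate the groups, and the widest differences lay among the control libraries. Control library 1 was the highest and control library 4 the lowest control for all 30 genes. For 28 of the 30 the controls stood in the strict order 1, 2, 3, 4, and for Bub1 and Cenpe libraries 3 and 4 were tied at 1 TPM or less. With ties counted as in order, the order 1, 2, 3, 4 held for all 30 genes and for 44.9% of all 10682 genes tested. This order is thus common in these libraries beyond the cell cycle. It is also the ascending order of the unexplained numbers in the column names, and 3 of the 4 experimental numbers (18, 21 and 22) lie between those of control libraries 2 and 3. Whether the numbers mark a batch or an order of handling is not known, and their part in the pattern was not tested. The summed level of the 30 genes was 603, 393, 140.3 and 64.6 TPM in the controls. In the experimental libraries it was 171, 189, 179 and 171 TPM, between control libraries 2 and 3 in each case.

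**Figure D1:**
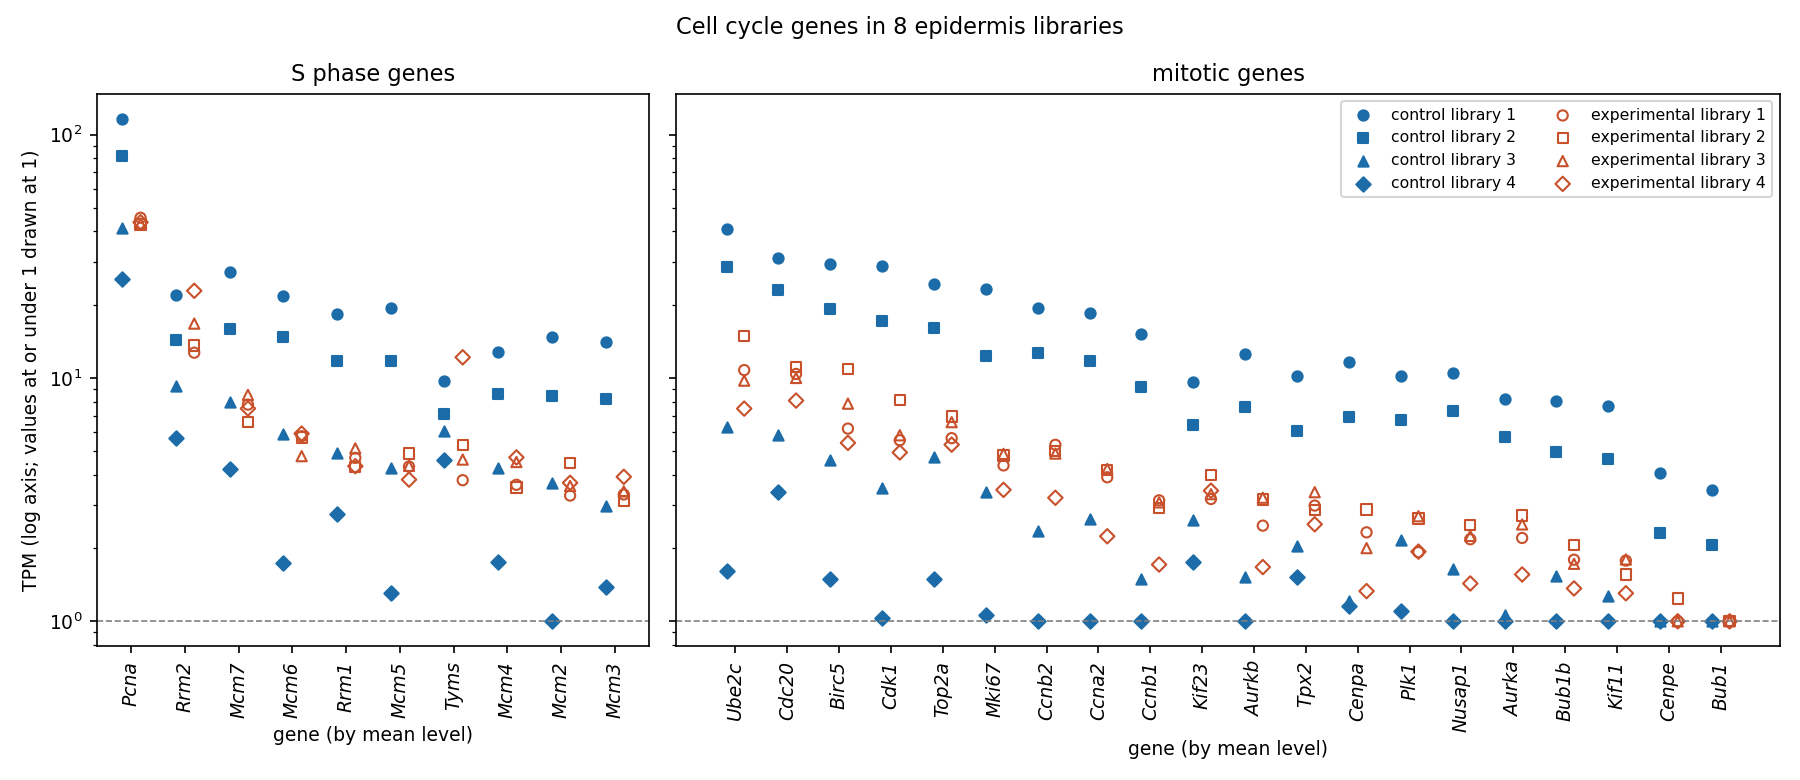
TPM (log axis) of each S phase gene (left) and mitotic gene (right), ordered by mean level; filled blue symbols are the 4 control libraries, open orange symbols the 4 experimental libraries, and values at or under 1 TPM are drawn at 1. Control library 1 lies highest and control library 4 lowest among controls in every column, and the experimental libraries cluster between them in most; Rrm2 and Tyms are high in experimental library 4.

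The S phase genes include the MCM helicase, the clamp and the enzymes of nucleotide supply. Pcna, the most abundant member, read 116, 81.7, 41.1 and 25.5 TPM in the controls and 45.5, 42.7, 43.0 and 43.6 TPM in the experimental libraries. All 4 experimental values lay between those of control libraries 2 and 3, within a range of 1.07-fold. The 6 MCM genes encode the subunits of the replicative helicase loaded at origins.

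Mcm7 was the most abundant of them, at 27.1, 15.9, 7.95 and 4.22 TPM across the controls, against 7.77, 6.58, 8.52 and 7.49 TPM across the experimental set. Mcm5 read 19.4, 11.8, 4.28 and 1.31 TPM across the controls, against 4.32, 4.89, 4.35 and 3.82 TPM across the experimental set. Mcm6 read 21.7, 14.7, 5.87 and 1.74 TPM across the controls, against 5.76, 5.70, 4.77 and 5.90 TPM across the experimental set. In all 3 the experimental libraries stood near control library 3 and above control library 4. Mcm2 went from 14.7 TPM in control library 1 to 1 TPM or less in control library 4, Mcm3 from 14.0 to 1.38 TPM, and Mcm4 from 12.8 to 1.76 TPM. Their experimental values ran from 3.29 to 4.49 TPM for Mcm2, 3.11 to 3.92 TPM for Mcm3 and 3.55 to 4.71 TPM for Mcm4.

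The enzymes of nucleotide supply did not share one pattern. Rrm1, the large subunit of ribonucleotide reductase, read 18.3, 11.8, 4.94 and 2.77 TPM across the controls, against 4.70, 4.30, 5.13 and 4.34 TPM across the experimental set, like the MCM genes. Rrm2 read 22.0, 14.3, 9.29 and 5.69 TPM across the controls, against 12.7, 13.6, 16.7 and 22.8 TPM across the experimental set. Tyms, thymidylate synthase, read 9.74, 7.14, 6.06 and 4.59 TPM across the controls, against 3.80, 5.31, 4.62 and 12.2 TPM across the experimental set. Experimental library 4 thus exceeded every control for Rrm2 and Tyms and no control but library 4 for Rrm1. Rrm2 had the only log2 change above 0 among the tested members, 0.45 (95% interval -0.33 to 1.23, limma adjusted p = 0.538). Tyms was the only one of the 30 genes that varied more in the experimental than in the control group.

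Among the mitotic genes, the regulators of entry came down to about 1 TPM or less in control library 4. Cdk1, the mitotic kinase, read 28.9, 17.2, 3.54 and 1.04 TPM across the controls, against 5.54, 8.09, 5.81 and 4.94 TPM across the experimental set. Ccnb1 and Ccnb2 encode the B-type cyclins that activate it. Ccnb1 read 15.1, 9.22, 1.49 and 0 TPM across the controls, against 3.14, 2.93, 3.08 and 1.71 TPM across the experimental set, and Ccnb2 read 19.5, 12.6, 2.34 and 0 TPM and 5.31, 5.02, 4.89 and 3.22 TPM. For these 3 genes each experimental library lay between control libraries 2 and 3. Ccna2, the cyclin of S and G2 phase, read 18.5, 11.7, 2.64 and 0 TPM across the controls, against 3.91, 4.20, 4.23 and 2.24 TPM across the experimental set.

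Mki67, the standard proliferation marker, read 23.3, 12.3, 3.39 and 1.06 TPM across the controls, against 4.37, 4.80, 4.87 and 3.47 TPM across the experimental set. It averaged 10.01 ± 10.1 TPM in the control group and 4.38 ± 0.65 TPM in the experimental group (SD, n = 4 for both), so the control SD was as large as the control mean. Top2a, the topoisomerase that untangles chromosomes, read 24.4, 16.0, 4.74 and 1.49 TPM across the controls, against 5.66, 6.95, 6.58 and 5.32 TPM across the experimental set. The most abundant mitotic gene, Ube2c, read 40.9, 28.5, 6.29 and 1.60 TPM across the controls, against 10.8, 14.8, 9.75 and 7.48 TPM across the experimental set. Its partner Cdc20 read 31.0, 23.0, 5.80 and 3.40 TPM across the controls, against 10.4, 11.1, 9.996 and 8.07 TPM across the experimental set. In the plot of TPM by library both follow the steps of Mki67.

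The same ranking of controls held for the mitotic kinases and the chromosomal passenger subunit. Birc5, which encodes survivin, read 29.4, 19.2, 4.604 and 1.498 TPM across the controls, against 6.19, 10.9, 7.84 and 5.41 TPM across the experimental set. Aurkb, the kinase of the same complex, read 12.6, 7.59, 1.52 and 0 TPM across the controls, against 2.47, 3.17, 3.22 and 1.67 TPM across the experimental set. Aurka, the spindle pole kinase, went from 8.19 to 0 TPM over the controls and from 1.56 to 2.72 TPM over the experimental libraries. Plk1, a kinase of mitotic entry and exit, went from 10.2 to 1.11 TPM and from 1.92 to 2.70 TPM.

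The genes of kinetochore and spindle lay lower. Cenpa, the centromeric histone, ranged from 1.16 to 11.6 TPM over controls and from 1.33 to 2.88 TPM over experimental libraries. Bub1b, of the spindle checkpoint, ranged from 0 to 8.02 TPM and from 1.37 to 2.05 TPM. The motor Kif11 ranged from 0 to 7.66 TPM and from 1.30 to 1.80 TPM, and the cytokinesis motor Kif23 from 1.75 to 9.64 TPM and from 3.18 to 3.98 TPM. The spindle assembly factor Tpx2 ranged from 1.52 to 10.2 TPM and from 2.50 to 3.39 TPM, and the microtubule-bundling gene Nusap1 from 0 to 10.48 TPM and from 1.43 to 2.48 TPM. The checkpoint kinase Bub1 was above the floor only in control libraries 1 and 2, at 3.45 and 2.06 TPM. The kinetochore motor Cenpe was above it in the same controls, at 4.06 and 2.30 TPM, and in experimental library 2 at 1.24 TPM.

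The control spread was wider for mitotic than for S phase genes. The summed S phase level was 276, 182, 90.4 and 48.9 TPM in controls, a range of 5.64-fold, and 94.8, 94.2, 98.7 and 112 TPM across the experimental set, a range of 1.19-fold. The summed mitotic level was 327, 210.5, 49.9 and 15.6 TPM in controls, and 76.1, 94.4, 79.9 and 58.4 TPM across the experimental set. Entries at the floor count as 0 in these sums, which affected 10 mitotic genes and 1 S phase gene in control library 4. The mitotic sum ranged over the controls by 20.9-fold with those entries at 0 and by 12.8-fold with them at 1 TPM, and over the experimental set by 1.62-fold and 1.58-fold. The S phase range over the controls was 5.52-fold with Mcm2 at 1 TPM. For single genes the highest control exceeded the lowest by a median of 6.96-fold for S phase and 10.2-fold for mitotic genes, with values at the floor set to 1 TPM.

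Within the experimental group the gene groups ranked the libraries differently. Experimental library 4 was the lowest experimental library for 16 of 20 mitotic genes and the highest for none of them. It was the highest for 5 of 10 S phase genes and the lowest for 1. Experimental library 2 was the highest for 11 of the mitotic genes. The mean log2(TPM + 1) of the mitotic genes minus that of the S phase genes was -1.30 in experimental library 4 and -0.80 to -0.64 in the other experimental libraries. In controls it was -0.57, -0.56, -1.19 and -0.90, so the groups overlapped.

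On the log2(TPM + 1) scale, the SD over the 4 libraries was larger in the control group for 18 of 18 tested mitotic genes and 9 of 10 S phase genes, against 64.7% of all genes tested. The median SD was 1.36 in controls and 0.23 in experimental libraries for tested mitotic genes, and 1.06 and 0.13 for S phase genes. Over all genes tested the medians were 0.32 and 0.23. In the experimental libraries the median for mitotic genes was therefore near that of all genes, and the median for S phase genes was below it. In the controls both medians were far above that of all genes. Bub1 and Cenpe were not tested, since their mean was under the filter of 1 TPM.

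**Figure D2:**
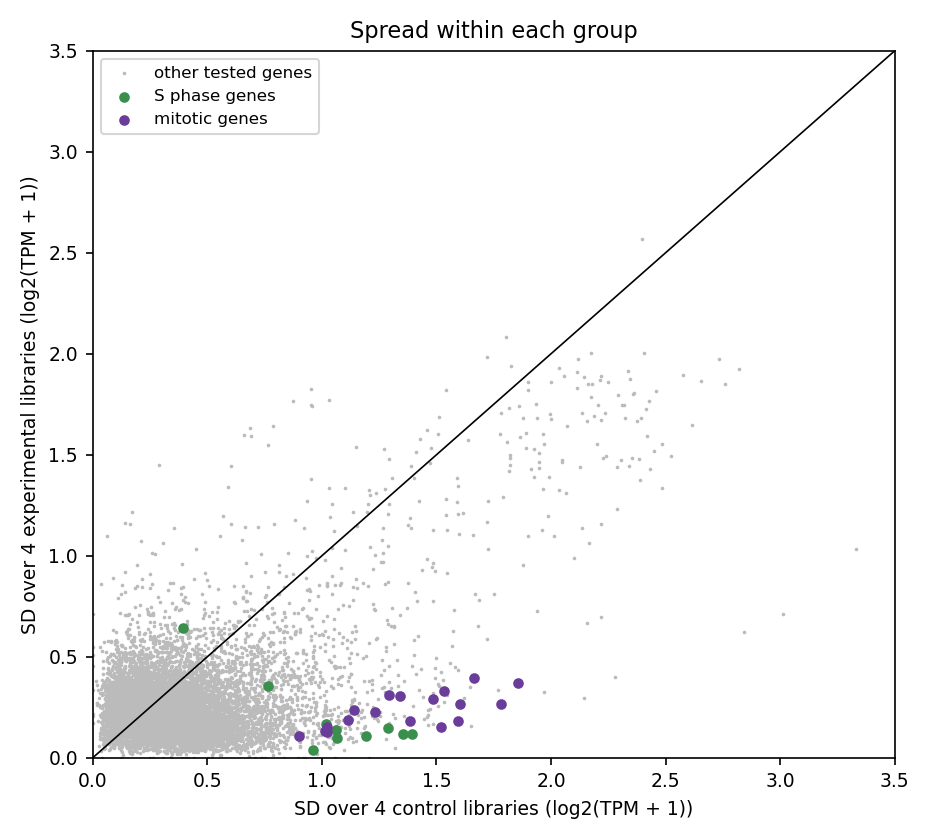
Each point is a tested gene, with its SD over the 4 control libraries on the x axis and over the 4 experimental libraries on the y axis, both on the log2(TPM + 1) scale; the line marks equal spread. S phase genes (green) and mitotic genes (purple) lie to the right, with control SDs of 0.39 to 1.85, and of these genes only Tyms lies above the line.

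In the comparison of experimental with control epidermis, none of the 28 tested cell cycle genes reached an adjusted p under 0.05 when limma was run over all genes, and none had an unadjusted p under 0.05. Over all genes tested 2.46% passed, and 1810 had an unadjusted p under 0.05. Log2 changes ran from -0.62 to 0.45 for S phase genes (median -0.41) and from -0.63 to -0.12 for mitotic genes (median -0.40), against a median of -0.18 over all genes tested. The lowest adjusted p was that of Rrm1 (log2 change -0.62, 95% interval -1.58 to 0.34, limma adjusted p = 0.493). For Mki67 the log2 change was -0.46 (95% interval -1.86 to 0.94, limma adjusted p = 0.731), and for Ube2c -0.12 (95% interval -1.76 to 1.52, limma adjusted p = 0.948). These intervals are wide, and an absence of change is not shown.

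The groups overlapped for each of the 30 genes, whereas they did not overlap for 12.6% of genes tested. For 28 of the 30, all 4 experimental libraries lay within the control range, the exceptions being Rrm2 and Tyms. For 14 of 20 mitotic but 2 of 10 S phase genes, all 4 experimental libraries lay strictly between control libraries 2 and 3. That placing was found for 7.65% of all genes tested. With all genes kept, including Bub1 and Cenpe, none of the 30 passed. Centring each library on its median shifted the median of all genes by 0.21 and moved the members' medians to -0.20 for S phase and -0.19 for mitotic genes, with none past the threshold.

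The direction of the comparison turned on which controls were compared. Against control libraries 1 and 2 alone, 8 of 10 S phase and 18 of 18 tested mitotic genes were lower in experimental epidermis and none was higher (limma, all genes). In that fit 21.6% of all genes were lower and 2.24% higher, so much of the transcriptome moved the same way. The largest change was that of Ccnb1, -1.81 (SE 0.25, limma adjusted p = 0.00489), and the exceptions were Rrm2 at -0.14 and Tyms at -0.44. After median centring, a choice made after seeing the data, 8 S phase and 14 mitotic genes were still lower, against 5.0% of all genes.

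Against control libraries 3 and 4 alone, all 28 tested genes had log2 changes above 0 and none passed. The medians were 0.47 for S phase and 0.69 for mitotic genes, against 0.01 over all genes, of which 1.8% were higher and 2.95% lower. Ube2c had the largest value, 1.39, and the lowest adjusted p among mitotic genes was 0.0515 (limma). Of the single control libraries, leaving out library 1 moved the mitotic median from -0.40 to 0.07, and leaving out library 4 moved it to -0.91. These pairs of controls were already known to differ in these genes. The fits therefore describe the libraries kept and are no test of the genotype.

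**Figure D3:**
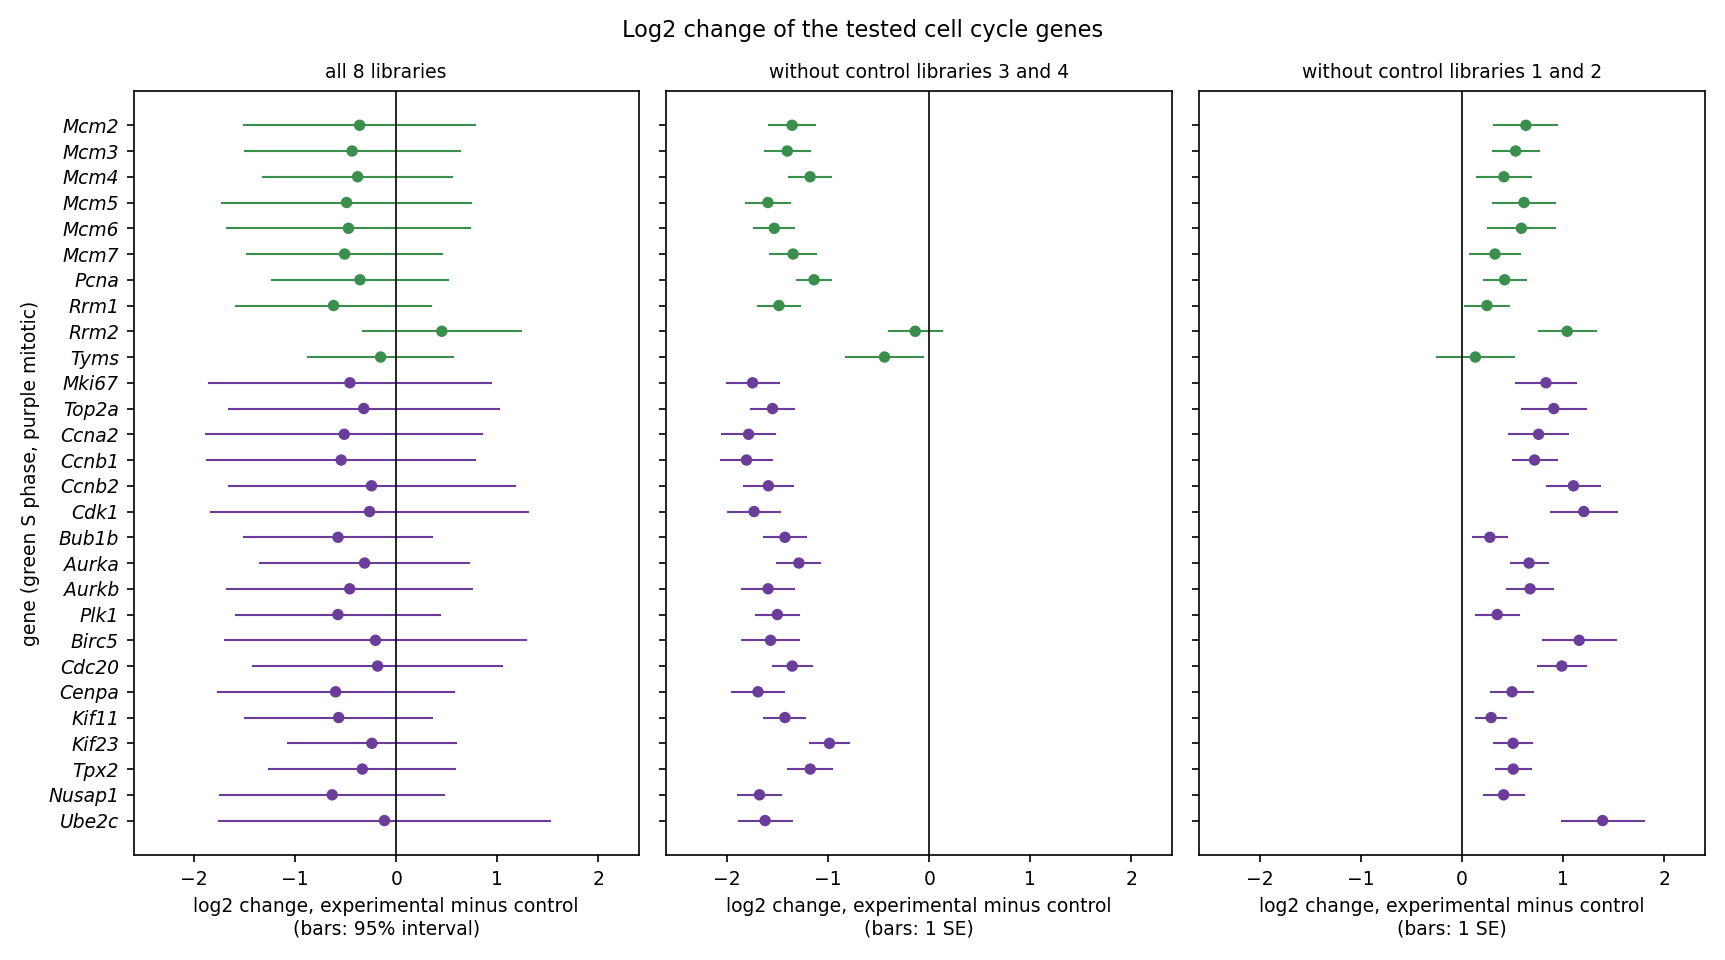
Log2 change (experimental minus control, log2(TPM + 1) scale) of the 28 tested genes with all libraries (left, bars are 95% intervals), without control libraries 3 and 4 (middle) and without control libraries 1 and 2 (right; bars are 1 SE in both). The intervals on the left all cover 0, the middle values all lie below 0 and the right values all lie above 0.

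Markers of basal keratinocytes moved with these genes among the controls. The summed level of the hair matrix and shaft markers ran the other way, as given below, but not every marker of that list did. The summed level of 14 basal keratinocyte markers was 8289, 7057, 2936 and 951 TPM in control libraries 1 to 4 and 1843 to 3102 TPM across the experimental set. Krt15, 1 of the 14, was lower in experimental epidermis in limma over all libraries, where 1.54% of all genes were lower. The control order 1, 2, 3, 4 held for 13 of the 14, against 44.9% of all genes with ties counted as in order. Krt14, the main basal keratin, read 3387, 2953, 808 and 387 TPM across the controls, against 890.5 to 1656 TPM across the experimental set, and did not pass (limma adjusted p = 0.926). Relative to the basal list, the mean log2 level of the S phase genes was -1.92, -2.21, -2.37 and -1.66 in controls and -2.23 to -1.64 in experimental libraries. The control range thus shrank from 2.38 to 0.71 on the log2 scale when the basal level was subtracted. For mitotic genes the difference was -2.49, -2.77, -3.56 and -2.56 in controls and -3.03 to -2.30 in experimental libraries, and the control range shrank from 2.71 to 1.07. The part of basal cell content in the spread was not tested beyond these values.

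Markers of other compartments moved in several ways. The summed level of 12 suprabasal keratinocyte markers stayed within 1.15-fold over the controls, at 81791 to 94009 TPM, and was 102034 to 139816 TPM across the experimental set. A few abundant genes such as Krt10 and Lor carry that sum, and these 2 moved in opposite ways over the controls. Krt10 went from 20259 TPM in control library 1 to 10269 TPM in control library 4, and Lor from 20279 to 31438 TPM. The steady sum therefore does not mean that each marker was steady. The suprabasal marker that passed, Calml3, was lower, at 466 ± 20.9 TPM in controls and 163 ± 50.6 TPM in experimental epidermis (SD, n = 4 for both, log2 change -1.57, limma adjusted p = 0.00847), and 4 of the 12 had log2 changes below 0. The summed level of the hair matrix and shaft markers, 13 of 14 found, ran the other way, from 6742 TPM in control library 1 to 48733 TPM in control library 4. These markers summed to 1605 to 11456 TPM across the experimental set. Abundant genes such as Krt71 and Tchh carry that sum, rising from 1676 to 12529 TPM and from 1215 to 12495 TPM between control libraries 1 and 4. Krt35 and Lef1, of the same list, fell from 169 to 13.3 TPM and from 11.8 to 2.54 TPM. The sum therefore does not show how the dividing cells of the follicle moved. Of 10 sebaceous gland markers Elovl3 and Plin2 were lower in experimental epidermis (log2 changes -1.99 and -1.41, limma adjusted p = 0.0116 and 0.0498), and 9 of 10 were below 0. Over all genes tested 1.54% were lower and 74.5% had log2 changes below 0, which also applies to the suprabasal counts above. Without control libraries 3 and 4, 7 of the 10 sebaceous markers were lower, where 21.6% of all genes were lower. The 6 erythroid markers summed to 181, 9583, 1613 and 194.5 TPM for control libraries 1 to 4, a range of 52.9-fold that did not follow the cell cycle genes, and none passed. All 6 endothelial markers were at 1 TPM or less in every library. Of 8 fibroblast markers Lum and Pdgfra were at that floor throughout, and the list summed to 126, 91.7, 55.7 and 25.1 TPM across the controls, against 47.6 to 69.1 TPM across the experimental set. Vim made up most of the control sums, at 82.7, 72.8, 48.2 and 20.7 TPM, and only 3 of the 8 passed the filter. The sum thus follows Vim and does not measure fibroblast content. The 5 T cell markers found summed to 29.1, 30.5, 16.7 and 1.84 TPM across the controls, against 6.64 to 27.0 TPM across the experimental set. The 12 housekeeping genes summed to 3973, 3935, 2746 and 2898 TPM in control libraries 1 to 4, against 2896 to 3255 TPM across the experimental set. Their mean log2(TPM + 1) also fell over the controls, at 6.86, 6.82, 6.10 and 5.96. The control order 1, 2, 3, 4 held for 6 of these 12, against 44.9% of all genes with ties counted as in order. The part of these compartments in the spread was not tested.

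**Figure D4:**
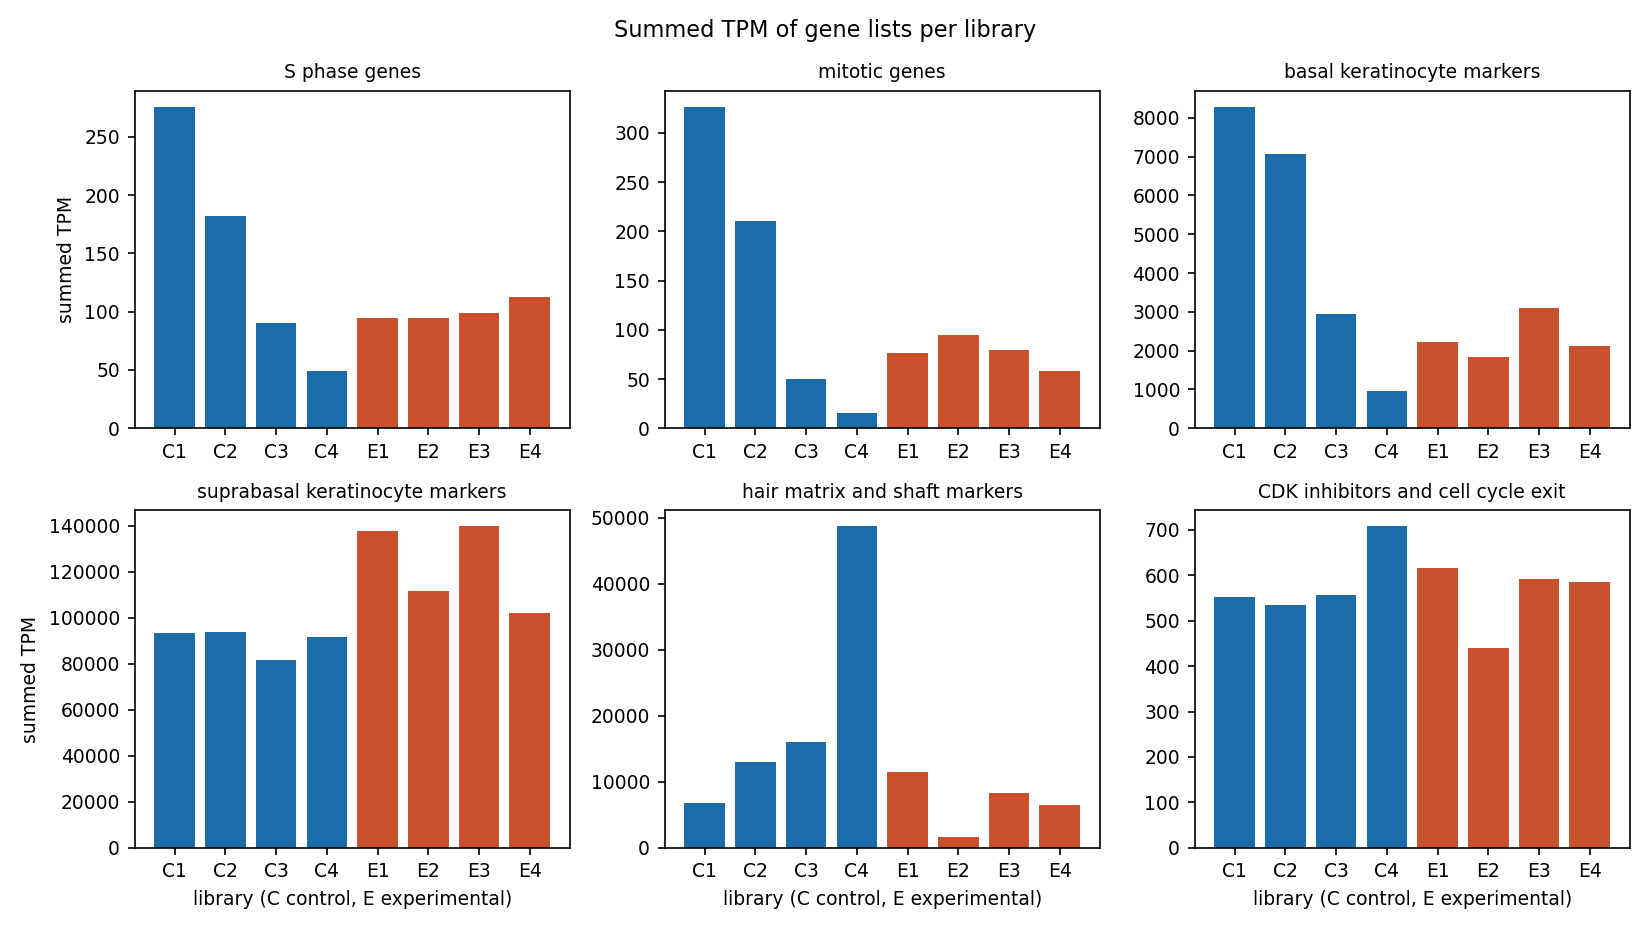
Summed TPM per library (C1 to C4 control in blue, E1 to E4 experimental in orange) of the S phase and mitotic genes, of basal, suprabasal and hair markers, and of CDK inhibitor and cell cycle exit genes; every axis starts at 0. The S phase, mitotic and basal panels step down from C1 to C4, the suprabasal panel does not, and the hair panel peaks in C4.

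Most other groups of cell cycle genes had the same control order, with inhibitors of the cycle as the exception. A further 152 genes were listed in 8 functional groups, and of 129 tested 1 was higher and none lower in experimental epidermis, against 0.917% higher and 1.54% lower over all genes tested. Their median log2 change was -0.39, with 119 of 129 below 0, against a median of -0.18 and 74.5% below 0 over all genes tested. Without control libraries 3 and 4, 94 were lower and 1 higher, where 21.6% of all genes were lower and 2.24% higher. With control libraries 1 and 2 left out instead, none was lower and 1 higher, where 2.95% of all genes were lower and 1.8% higher. With ties counted as in order, the control order 1, 2, 3, 4 held for 17 of 20 genes of origin licensing and firing. It also held for 28 of 30 genes of the replication fork and nucleotide supply and 19 of 20 genes of spindle motors and cytokinesis. The order held for 16 of 19 G1 and S phase regulators and 11 of 15 genes of G2 and mitotic entry. It was present in 20 of 20 genes of kinetochore and spindle checkpoint and 14 of 16 of chromosome condensation and cohesion. Of the 12 genes of CDK inhibition and cell cycle exit 3 had it. These counts include genes that were not tested, and the share over all genes tested was 44.9%. With entries at the floor set to 1 TPM, the sums of the first 3 lists ranged over the controls by 3.53-fold, 3.86-fold and 5.13-fold, and over the experimental set by 1.13-fold, 1.14-fold and 1.30-fold. Of the 20 genes of spindle motors and cytokinesis, 11 were at the floor in control library 3 and 17 in control library 4. Many of their places in the order are therefore ties.

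The gene that passed was Cdkn2b, which encodes the CDK4 and CDK6 inhibitor p15INK4b. It read 13.8, 14.3, 11.7 and 7.94 TPM across the controls, against 32.1, 23.2, 37.9 and 29.6 TPM across the experimental set, with no overlap. It averaged 11.9 ± 2.89 TPM across the controls, against 30.7 ± 6.10 TPM in the experimental group (SD, n = 4 for both), a 2.57-fold rise (log2 change 1.30, SE 0.22, limma adjusted p = 0.016). It passed without either pair of controls, and the adjusted p was 0.00173 with median centring. It was above 0.05 without control library 3 or without experimental library 1, 3 or 4 (limma adjusted p = 0.0544, 0.0501, 0.0652 and 0.0551) and without experimental libraries 2 and 4 together (0.116). The log2 change in these fits was 1.30, 1.28, 1.20, 1.31 and 1.50, so the change itself stayed near that over all libraries or was larger. The other 10 tested genes of CDK inhibition and cell cycle exit did not pass. That list of 12 genes summed to 535 to 708 TPM across the controls, against 441 to 615 TPM across the experimental set, without the steps of the replication genes.

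In each of the other groups the gene of lowest p did not pass. Among G1 and S phase regulators it was Rbl2, the retinoblastoma relative p130, at 5.03 ± 0.51 TPM (control) and 3.44 ± 0.55 TPM (experimental; SD, n = 4 for both, limma adjusted p = 0.193). For origin licensing it was Cdt1, the MCM loader, at 9.39, 6.02, 2.90 and 2.46 TPM across the controls, against 2.00 to 2.56 TPM across the experimental set. For the replication fork it was Rpa1, which binds single-stranded DNA, at 14.2 ± 4.71 and 8.55 ± 0.88 TPM. For mitotic entry it was the transcription factor gene Mybl2, at 4.28 ± 1.28 and 2.04 ± 1.21 TPM. For the kinetochore it was Cenph, at 11.4, 7.82, 4.63 and 2.42 TPM across the controls, against 1.89 to 2.96 TPM across the experimental set. For spindle motors and cytokinesis it was Ect2, at 0 to 4.18 TPM across the controls, against 0 to 1.21 TPM across the experimental set. For chromosome condensation it was Hmgb2, a chromatin protein gene of dividing cells, at 99.9, 66.6, 30.1 and 19.7 TPM across the controls, against 19.5 to 26.2 TPM across the experimental set.

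**Figure D5:**
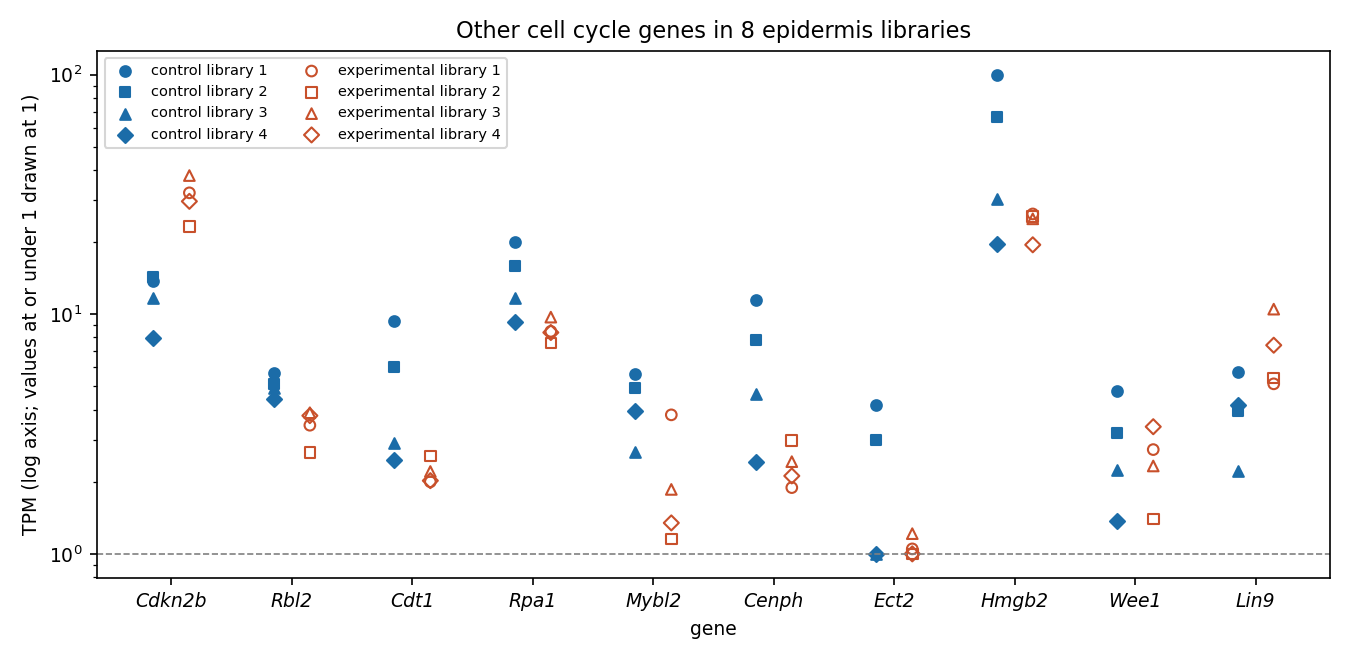
TPM (log axis) per library of Cdkn2b, of the gene of lowest p in each other cell cycle group, and of Wee1 and Lin9; filled blue symbols are control and open orange symbols experimental libraries. Cdkn2b lies above all controls in each experimental library, and Cdt1, Cenph and Hmgb2 step down over the controls.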

How the data were processed

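RNA of 8 epidermis libraries was sequenced; per the submitters' processing notes STAR, SAMtools 1.9, Salmon 0.14.0 and DESeq were used with GRCm38 and mm10, without a stated role. The deposited expression values, taken to be log2 TPM, were made by the authors without batch correction per the file name. Set against normalized counts per kilobase from the authors' deposited comparison, the ratio in 3 rising expression bins, relative to the highest bin, was 0.99, 0.99 and 0.866 if the scale is log2 TPM and 1.43, 1.14 and 0.914 if it is log2(TPM + 1). The low bins, where the readings differ most, were flatter for log2 TPM and the third was not; values were read as log2 TPM with a floor of 1, which no source states. Of 21690 identifiers 21662 matched a symbol. Columns show the group and no replicate number of the labels. TPM was set to at least 1, and log2(TPM + 1) of 10682 genes with mean TPM of at least 1 was fitted in limma 3.58.1 (R 4.3.3; group as the only term, variance trend, Benjamini-Hochberg); the script was tested on simulated data. Tables and figures used pandas 2.3.3, numpy 2.4.6 and matplotlib 3.10.9 (Python 3.11.15). A fold on this scale understates low genes.

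The deposited differential expression table gives, per the file headers, a mean count signal, log2 fold change, Wald score and p-values; all its rows are below 0 in fold change and significant at 0.05. The deposited MAJIQ table gives a PSI fraction per group and a probability score. The members, lists and left-out control pairs were chosen with earlier results of these data known. Named genes were the members, Esrp1 and, per other cell cycle list, up to 3 genes past the threshold or else the 1 of lowest p. Alternatives were pseudocounts, filters, scaling, no variance trend and leaving out libraries.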

Additional observations from a re-analysis of the deposited data

Results flagged for a closer look

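In 60 groups of 4 libraries (30 genes, control and experimental), 4 had a library whose gap to the nearest other was a larger share of the group's range than Dixon's 95% critical value on the log2(TPM + 1) scale; chance flags about 1 in 20. Ccna2 read 2.24 TPM and Ccnb1 1.71 TPM in experimental library 4, below the other experimental libraries (3.91 to 4.23 and 2.93 to 3.14 TPM). Mcm6 read 4.77 TPM in experimental library 3, against 5.70 to 5.90 TPM in the others. Cenpe read 1.24 TPM in experimental library 2 and 1 TPM or less in the other experimental libraries; with the others tied at the floor any single value above it meets the criterion, and the chance rate does not apply to it.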

How the results depend on the processing

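With all libraries kept, none of the 28 tested cell cycle genes passed under any pseudocount, filter, scaling or variance setting, and none passed when 1 library was left out. The number of genes past the threshold over all genes was 263. It ran from 85 to 581 when 1 library was left out, and was 15 without experimental libraries 2 and 4, 507 with controls 1 and 2 left out and 2545 with controls 3 and 4 left out (584 and 1338 with median centring, added after seeing the data). The higher and lower calls were 98 and 165, and 283 and 102 with median centring and 269 and 117 with quantile normalization. Without control libraries 3 and 4, 8 S phase and 18 mitotic genes were lower (8 and 14 with centring); without control libraries 1 and 2 and with centring 1 S phase gene, Rrm2, was higher. The S phase median log2 change was -0.41, ran from -0.89 to -0.014 when 1 library was left out, and was -1.35 with controls 3 and 4 left out and 0.47 with controls 1 and 2 left out (-0.98 and 0.53 with centring). The mitotic median was -0.40, ran from -0.91 to 0.07, and was -1.58 and 0.69 (-1.21 and 0.75 with centring). The cause of these moves was not tested. No paired analysis was possible because the columns of the expression table carry no replicate number of the labels. The floor of 1 TPM limits the low mitotic genes most.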

Other observations

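None of the 30 genes was in either of the authors' deposited tables, but 6 of the 182 cell cycle genes looked up were. In the authors' deposited tables these were 4 (2.2%) for expression and 2 (1.1%) for junctions. There 748 genes (3.45% of the 21690 in the expression data) and 236 genes (1.09%) are listed. These shares are not like for like. Of the 21690 genes 10682 had a mean of at least 1 TPM, as did 28 of the 30 members and 129 of the 152 other cell cycle genes. The deposited expression table also holds only fold changes below 0, so a gene that rose, such as Cdkn2b, could not be in it. The 6 genes found were picked out after the tables were read. In the authors' deposited MAJIQ table, Wee1, the kinase that holds CDK1 inactive until mitosis, had 5 introns with a higher share retained in experimental epidermis. PSI, the share of reads that keep the intron, went from 0.162 to 0.462 over these introns for the control group and from 0.529 to 0.898 for the experimental group in the authors' deposited table, whose probability of a difference of at least 0.15 was 1.0 for each. Wee1 itself read 4.80, 3.18, 2.24 and 1.38 TPM across the controls, against 2.72, 1.40, 2.33 and 3.39 TPM across the experimental set, and its level did not pass (limma adjusted p = 0.84). Lin9, a subunit of the MuvB complex, had 1 intron whose PSI was 0.303 for the control group and 0.619 for the experimental group in the authors' deposited table. Its level was 4.03 ± 1.44 and 7.12 ± 2.48 TPM (SD, n = 4 each, limma adjusted p = 0.226).

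The authors' deposited differential expression table lists Cenph (log2 fold change -1.16, SE 0.38), E2f7 (-0.91, SE 0.26), Rpa1 (-0.49, SE 0.16) and Rbl2 (-0.36, SE 0.12), with adjusted p of 0.033, 0.00851, 0.0366 and 0.0429 in that table. In the limma fit Cenph, Rpa1 and Rbl2 did not pass, and E2f7, an E2F-family repressor, was under the filter, with 1.79 TPM in control library 1, 1.21 TPM in control library 2 and 1 TPM or less elsewhere.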
